A study of Homo sapiens with 41 samples.

Results

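Elongin A peaks were examined at the genes for the U2, U4 and U5 small nuclear RNAs (snRNAs), the RNAs that form the cores of the major spliceosome's small nuclear ribonucleoproteins. Peaks were taken at 9 named genes, RNU2-1, RNU2-2P, RNU4-1, RNU4-2, RNU5A-1, RNU5B-1, RNU5D-1, RNU5E-1 and RNU5F-1, out of 62296 genes in the annotation, and a peak was counted when any part of it lay within 1 kb of the gene. Positions of 8 of the 9 were taken from GENCODE release 44 on GRCh37, whose chromosomes match hg19. RNU2-1 has no entry under that symbol in it and was not analysed here. The genes were selected on these same peaks, by their presence in the lists, their fold enrichment rank and the side of the gene on which they lie, so presence, strength and position are described without tests.

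The series has 41 samples of DLD1, a human colon cancer cell line, and 7 of these were used. All 7 came from wild-type cells that received no siRNA and were fixed with formaldehyde. They comprise 2 replicates of Elongin A CUT&RUN with a goat antibody and 1 goat IgG control, 1 Elongin A CUT&RUN sample with a mouse antibody and 1 mouse IgG control, and 1 Elongin A ChIP-seq sample with 1 input. Each of the 3 sets has a single deposited peak list, with 8720 peaks for the goat antibody, 2338 for the mouse antibody and 186 for ChIP-seq. The lists give neither read totals nor values per replicate, so depth is unknown and no value carries a replicate error, and they hold no expression values against which the labelled cell type could be checked. Fold enrichment at a peak is relative to the control of its own list and was used only to rank peaks within that list.

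In pre-mRNA splicing, U2 pairs with the branch site of the intron, U4 holds U6 inactive until the spliceosome is activated, and U5 contacts the exons at both splice sites through its loop I. These snRNAs are made by RNAPII from short, intronless genes that do not use the polyadenylation signals of mRNA genes. Their promoters hold a proximal sequence element (PSE), which is bound by the SNAPc complex, and a distal element that often contains an octamer for the factor OCT1 (POU2F1). The 3′ end of the transcript is made by the Integrator complex at a 3′ box just past the gene, and RNAPII continues into the DNA beyond it. Elongin A is the largest subunit of Elongin, a factor that associates with RNAPII and stimulates elongation in vitro.

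The promoters are shown for the PSE core, which was found at most but not all of the genes. Each line gives the 75 bases before the gene on its own strand, from the GRCh37 assembly, and capitals mark the PSE core ACCNTNA where it was found 70 to 40 bases before the gene start.
RNU2-2P: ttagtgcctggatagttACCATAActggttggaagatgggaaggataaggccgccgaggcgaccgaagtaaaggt
RNU4-1: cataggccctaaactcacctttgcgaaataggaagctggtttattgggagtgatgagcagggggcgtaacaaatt
RNU4-2: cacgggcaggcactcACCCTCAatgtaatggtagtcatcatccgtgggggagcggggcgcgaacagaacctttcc
RNU5A-1: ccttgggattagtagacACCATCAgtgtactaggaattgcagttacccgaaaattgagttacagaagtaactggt
RNU5B-1: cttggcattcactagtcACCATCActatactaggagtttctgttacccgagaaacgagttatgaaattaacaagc
RNU5D-1: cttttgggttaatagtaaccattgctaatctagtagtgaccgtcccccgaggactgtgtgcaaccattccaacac
RNU5E-1: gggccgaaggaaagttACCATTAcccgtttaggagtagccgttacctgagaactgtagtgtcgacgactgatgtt
RNU5F-1: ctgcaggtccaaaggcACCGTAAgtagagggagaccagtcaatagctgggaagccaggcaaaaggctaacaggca
The core was present at 6 of the 8 genes, and its first base lay 58, 59 or 60 bases before the start in each of them. The letters were not found in this window at RNU4-1 and RNU5D-1. Among the windows of all annotated genes 1.61% held the core, and among those of the 1900 genes of the snRNA class 2.95% did.

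The octamer ATTTGCAT was searched on both strands in the 300 bases before each gene. It was found at 5 genes, on the gene strand, beginning 229 bases before RNU4-2, 203 before RNU5A-1, 212 before RNU5B-1, 220 before RNU5E-1 and 227 before RNU5F-1. Of all annotated genes, 2.38% held it in a window of this length, and of the snRNA class 3.68% did. A 3′ box, searched as GTTT, up to 3 bases, then AAANNNAGA, began 11 bases past the end of RNU5D-1 and of RNU5E-1, and 0.0578% of all windows of 40 bases past a gene held a match, as did 0.579% of those of the snRNA class. These windows of 40 bases are printed for both genes with the match in capitals.
RNU5D-1: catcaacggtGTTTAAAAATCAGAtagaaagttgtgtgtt
RNU5E-1: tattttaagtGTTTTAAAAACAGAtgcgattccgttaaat
Such matches describe the letters of the reference and not occupied sites. For the PSE core, the octamer and the 3′ box only the spellings given were searched, so a gene without a match may still hold a variant of the element.

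RNU4-1 and RNU4-2 were identical at 137 of 141 positions (97.2%).

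Every one of the 8 placed genes had a peak within 1 kb in each of the 3 lists. The share of all annotated genes with such a peak was 10.2% in the goat antibody list, 3.66% in the mouse antibody list and 0.395% in the ChIP-seq list, and 0.132% had one in all 3. Within the snRNA class, most of which are pseudogene copies, the shares were 2.11%, 1.21% and 1.16%, and 0.947% (18 genes, these 8 among them) had a peak in all 3 lists. The members were chosen for their peaks, so nothing is read from the difference between these shares and theirs. In the ChIP-seq list, 4 of the 10 highest fold enrichments were at these genes and 6 of the 50 highest.

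**Figure D1:**
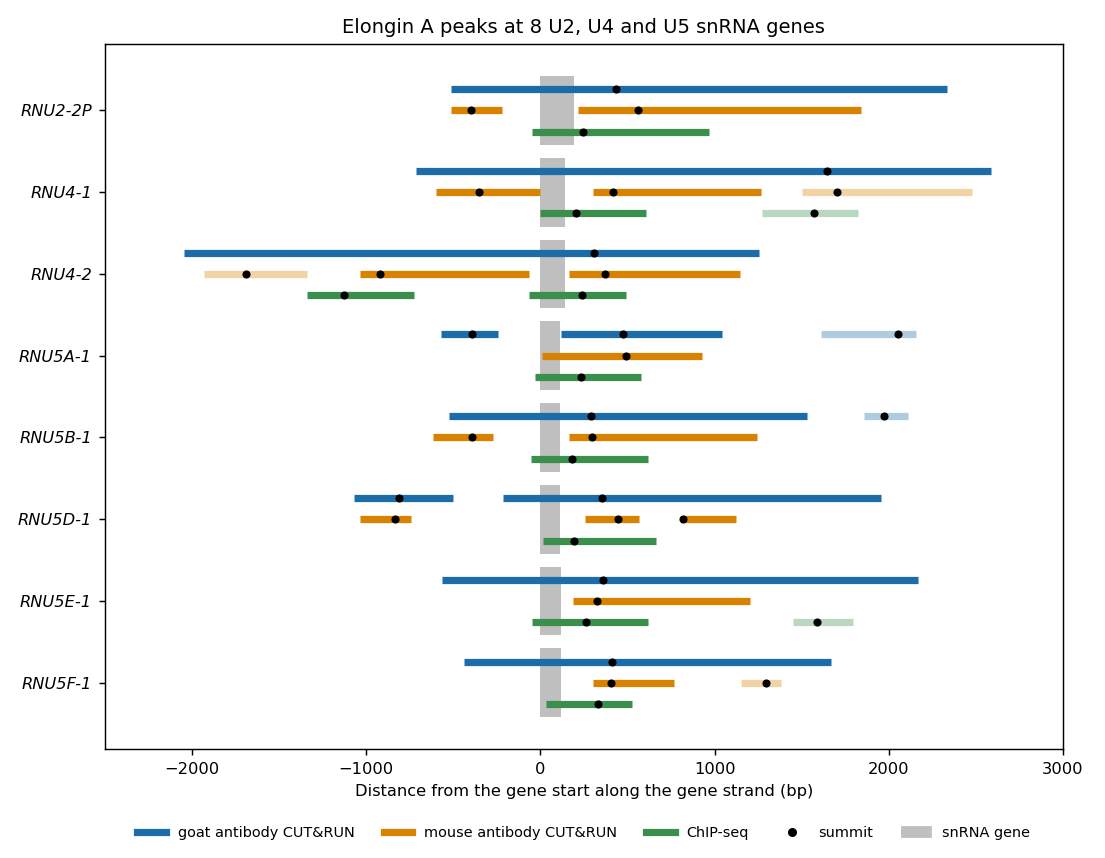
Position of each Elongin A peak along 8 snRNA genes, in bp from the gene start on the gene's strand (horizontal axis), with 1 bar per peak, colored by list, a black dot at its summit and the gene in gray. Bars in pale color lie between 1 and 5 kb from the gene. A goat antibody peak 2537 bp upstream of RNU5A-1 lies beyond the left edge and is not shown. The summit of each gene's own ChIP-seq peak lies 54 to 215 bp past the gene end at all 8 genes.

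RNU2-2P (ENSG00000222328.1, chr11:62609091-62609281, minus strand) is a U2 gene of 191 bp, and its start coincides with that of 2 annotated transcripts of the protein-coding gene WDR74 on the same strand. Its ChIP-seq peak had the highest fold enrichment (47.1) and the highest −log10 q-value (201) of that list. The goat antibody peak, chr11:62606945-62609792, had a fold enrichment of 9.10 (rank 125 of 8720) and was 2848 bp wide. By −log10 q-value (61.6) it ranked 24.

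In the mouse antibody list, RNU2-2P had 2 peaks, 1 on each side of the gene. The peak past the gene had a fold enrichment of 8.72 (rank 11 of 2338) and spanned 1621 bp, whereas the upstream peak had 6.92 (rank 59) and spanned 293 bp. The goat antibody peak also covered the starts of 12 annotated WDR74 transcripts. Its summit lay in a WDR74 intron, 242 bp past the end of RNU2-2P and 997 bp before the next WDR74 start in that direction.

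RNU4-1 (ENSG00000200795.1, chr12:120730900-120731040) and RNU4-2 (ENSG00000202538.1, chr12:120729566-120729706) lie in tandem on the minus strand, 1193 bp apart, and the nearest protein-coding gene, SIRT4, is 9079 bp from RNU4-1. In the goat antibody list a single peak of 3299 bp, chr12:120728453-120731751, covered both, with a fold enrichment of 14.7 (rank 17), and it can be assigned to neither gene alone. Its summit lay 171 bp past the end of RNU4-2, which is downstream of RNU4-1 as well.

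ChIP-seq separated the U4 genes. The peak at RNU4-2 had a fold enrichment of 32.1 (rank 2 of 186), and the peak at RNU4-1, chr12:120730431-120731042, had 14.7 (rank 52). In the mouse antibody list 3 peaks lay at the pair, with fold enrichments of 7.85 between the genes (rank 23), 7.11 upstream of RNU4-1 (rank 46) and 5.97 past RNU4-2 (rank 202).

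RNU5A-1 (ENSG00000199568.1, chr15:65588389-65588504) and RNU5B-1 (ENSG00000200156.1, chr15:65597015-65597130) are on the plus strand, 8510 bp apart. RNU5A-1 lies within PARP16, which runs on the opposite strand, and RNU5B-1 is 4059 bp from the PARP16 boundary. Their goat antibody peaks had nearly equal fold enrichments (13.6 for each, ranks 25 and 23) but different shapes. The peak at RNU5B-1 was 2051 bp wide and covered the gene, whereas the peak at RNU5A-1 was 925 bp wide and began 3 bp past it.

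A separate weak goat antibody peak of RNU5A-1, with a fold enrichment of 4.07 (rank 5117), had its summit 394 bp before the gene start. ChIP-seq gave 28.8 at RNU5A-1 (rank 6) and 24.2 at RNU5B-1 (rank 15). Mouse antibody peaks past the genes had fold enrichments of 6.20 at RNU5A-1 (rank 131) and 5.79 at RNU5B-1 (rank 228). RNU5B-1 also had an upstream mouse antibody peak of 5.34 (rank 395), with its summit 393 bp before the start.

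RNU5E-1 (ENSG00000199347.1, chr1:11968209-11968328, plus strand) lies within a long noncoding RNA gene of the same strand, ENSG00000285646, and far from coding genes. It was high in all 3 lists. The goat antibody fold enrichment was 15.1 (rank 14, and rank 2 by −log10 q-value), the mouse antibody value was 9.25 (rank 6) and the ChIP-seq value was 26.8 (rank 10). No separate upstream peak was called there in any list, although the goat antibody peak reached 563 bp before the gene start. The pseudogene RNU5E-4P lies 1537 bp past RNU5E-1 on the opposite strand, and the goat antibody peak of 2734 bp reached across both. That peak also covered the annotated start of ENSG00000285646. In all 3 lists the summit of the peak at RNU5E-1 lay in an exon of this long noncoding RNA gene.

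RNU5F-1 (ENSG00000199377.1, chr1:45187458-45187574) and RNU5D-1 (ENSG00000200169.1, chr1:45196727-45196842) are on the minus strand, 9152 bp apart. RNU5F-1 lies in an intron of ARMH1, which runs in the other direction, and RNU5D-1 has no annotated gene within 1 kb of its peaks. These had the lowest goat antibody values of the set, 8.33 at RNU5D-1 (rank 192) and 7.75 at RNU5F-1 (rank 286), although both lay above 5.20, the upper quartile of the list.

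The ChIP-seq values differed more between these neighbors, with 18.9 at RNU5D-1 (rank 28) and 9.14 at RNU5F-1 (rank 102), the latter below the list median of 9.99. In the mouse antibody list RNU5D-1 had 3 weak peaks, with fold enrichments of 4.32, 3.89 and 3.79, and RNU5F-1 had 1 of 3.35. All 4 were below the list median of 4.36. The RNU5F-1 peak had a −log10 q-value of 1.86, so with a q-value under 0.01 no mouse antibody peak remained within 1 kb of this gene.

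Strength was thus ordered differently in the 3 lists. RNU5E-1 led in both CUT&RUN lists and RNU2-2P in ChIP-seq, and RNU5F-1 was lowest in all 3. The median percentile of the strongest peak of each gene, that is, the share of the list's peaks that rank below it, counting the peak itself as 0.5, was 99.7 in the goat antibody list (range 96.7 to 99.8), 96.7 in the mouse antibody list (10.5 to 99.8) and 93.5 in the ChIP-seq list (45.4 to 99.7). The CUT&RUN medians count shared peaks of RNU4-1 and RNU4-2 for each gene. Neighboring values in these orders cannot be separated, because the lists hold no replicate spread.

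**Figure D2:**
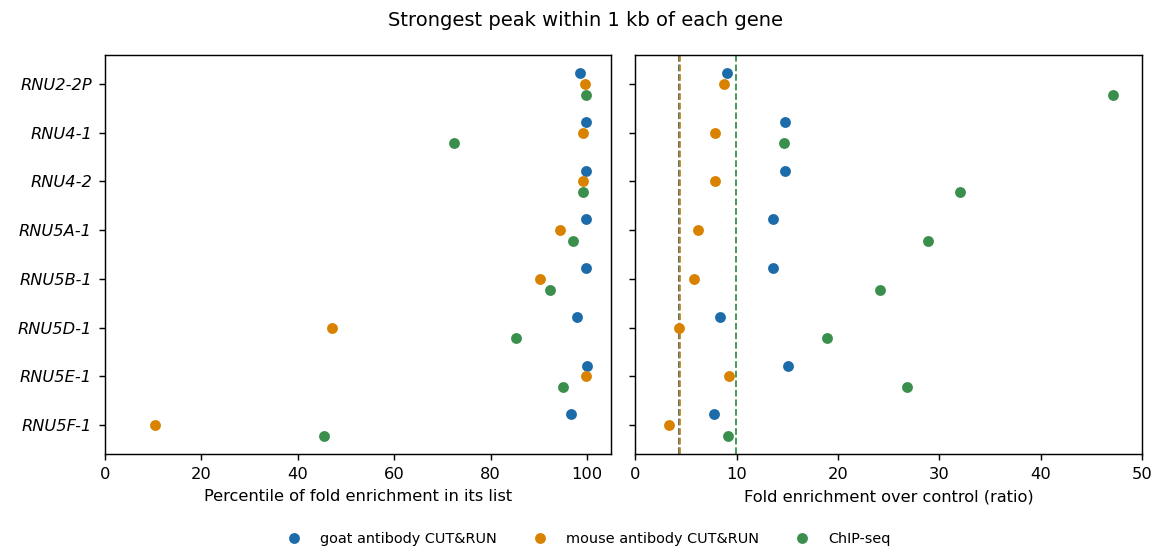
Strongest peak within 1 kb of each gene in each list, as the percentile of its fold enrichment in that list (left) and as the fold enrichment over control itself (right, dashed lines at the list medians, of which the goat and mouse antibody lines, 4.32 and 4.36, overlie each other and the ChIP-seq line is at 9.99). Points stand for 1 peak each, with no error bars. Goat antibody points all lie at or above the 96.7th percentile, and mouse antibody points at RNU5D-1 and RNU5F-1 lie below 50.

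Most goat antibody peaks at these genes were wide. Of the 8720 peaks of the list, 0.883% (77) were 2 kb or wider. The strongest peaks at the 8 genes are 7 distinct peaks, and 6 of them were 2 kb or wider, from 2051 to 3299 bp. The exception was the peak at RNU5A-1. Some related genes had goat antibody peaks of similar width. These were 3130 bp at the pseudogene RNU5A-8P, 2697 bp at the U1 gene RNU1-2, 2606 bp at RNU4ATAC and 2251 bp at RNU7-1. The other U1 genes with a peak had narrower ones, of 655 to 1483 bp. So did the other pseudogene copies, with 333 to 1551 bp, leaving aside RNU5E-4P, which shares the peak of RNU5E-1. ChIP-seq peaks at the U2, U4 and U5 genes were 494 to 1019 bp wide, beside a list median of 361 bp. In the mouse antibody list the strongest peaks were 292 to 1621 bp wide, beside a list median of 295 bp.

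Most summits lay past the 3′ end of the gene, in 8 of 10 pairs of a gene and a peak within 1 kb in the goat antibody list, 9 of 14 in the mouse antibody list and 8 of 9 in ChIP-seq, and the others lay upstream. In the mouse antibody list the strongest peak itself had its summit upstream at RNU4-2 (919 bp before the start) and RNU5D-1 (834 bp). In ChIP-seq the summit of each gene's own peak was downstream at all 8 genes, at 54 bp past the end for RNU2-2P, 66 bp for RNU4-1, 67 bp for RNU5B-1, 77 bp for RNU5D-1, 99 bp for RNU4-2, 117 bp for RNU5A-1, 143 bp for RNU5E-1 and 215 bp for RNU5F-1. No summit of any list fell within a gene. Goat antibody summits of the strongest peaks lay farther out, at 171 bp for RNU4-2, 177 bp for RNU5B-1, 239 bp for RNU5D-1, 242 bp for RNU2-2P, 243 bp for RNU5E-1, 298 bp for RNU5F-1 and 357 bp for RNU5A-1, and the summit shared with RNU4-2 was 1505 bp past RNU4-1.

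Leaving aside the upstream summits, the nearest mouse antibody summit past the gene lay at 181 to 379 bp, with a median of 283 bp. Among summits past the gene, that of ChIP-seq was therefore closer to the gene end than that of either CUT&RUN antibody at 8 of 8 genes. At RNU4-1 the goat antibody summit compared is the one shared with RNU4-2, so for that antibody it is not a separate case. Between the goat and mouse antibodies the nearest summits were 4 to 130 bp apart at the genes other than RNU4-1. For RNU4-1 the distance was 1230 bp, which follows from the 1 kb limit. The shared goat antibody summit had a mouse antibody summit 59 bp away, but the peak of the latter lies 1360 bp from RNU4-1 and was counted for RNU4-2 only.

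ChIP-seq peaks began close to the gene start and ran past its end. At most 62 bp of the strongest peak lay upstream of the start, and 352 to 779 bp lay past the end. Goat antibody peaks reached 927 to 2447 bp past the gene end, with a median of 1695 bp, and the median reach before the start was 516 bp. All 8 genes had overlapping goat antibody and ChIP-seq peaks, and at 7 of them the ChIP-seq peak lay wholly inside the goat antibody peak. At RNU5A-1 the peaks shared 461 bp, which is 75.6% of the ChIP-seq peak.

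Mouse antibody peaks left the gene itself uncovered in all cases but RNU5A-1, where 106 of 116 bp were covered. At 5 genes, RNU2-2P, RNU4-1, RNU4-2, RNU5B-1 and RNU5D-1, the list had a peak on each side, separated by a space that held the gene. The space measured 231 bp at RNU4-2, 305 bp at RNU4-1, 437 bp at RNU2-2P, 437 bp at RNU5B-1 and 995 bp at RNU5D-1. In the goat antibody list the gene was covered in full at 7 of 8 genes and left out at RNU5A-1, and in ChIP-seq it was covered in full at 6 genes, with 102 of 116 bp at RNU5D-1 and 85 of 117 bp at RNU5F-1.

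The genes have many near copies in the genome, so the uniqueness of their sequence was measured. Within the genes, 41.2% (RNU5B-1) to 88.4% (RNU5F-1) of the words of 32 bases occurred only once in the GRCh37 assembly, with a median of 59.1%, and a word of RNU2-2P occurred up to 52 times. In the 1 kb past the genes the unique share was 70.4 to 95.4%. The word centered on the summit was unique for 33 of 33 pairs of a gene and a peak within 1 kb. Whether the repeated words within the genes have a part in the uncovered space of the mouse antibody list was not tested.

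**Figure D3:**
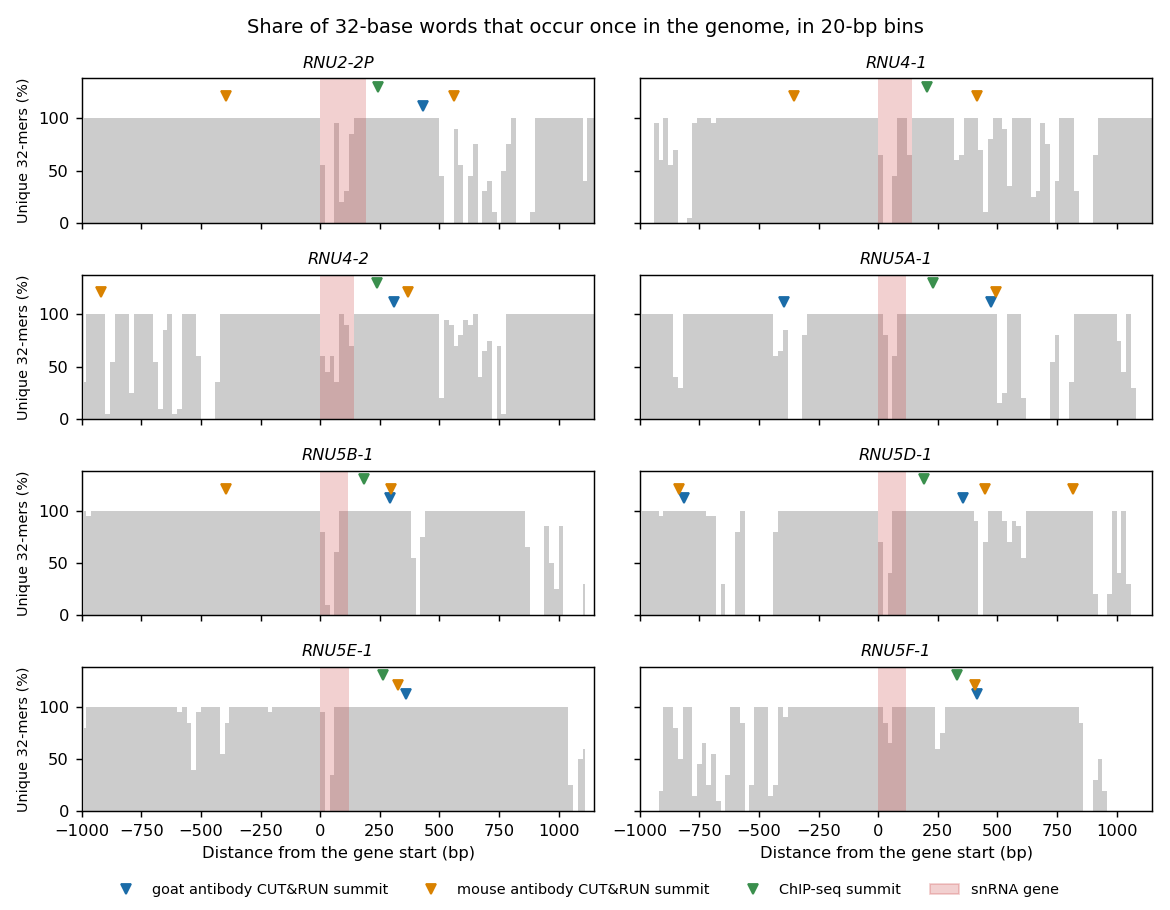
Share of words of 32 bases that occur once in the GRCh37 assembly (gray, percent, bins of 20 bp) from 1 kb before to 1 kb past each gene, with the gene in red and triangles for the summits of each list at a height with no scale. Over the whole gene the unique share is 41.2 to 88.4%, and every summit lies outside the gene. The goat antibody summit of RNU4-1 lies beyond the right edge. In the RNU4-2 panel, the summit of the ChIP-seq peak at RNU4-1, which was also counted for RNU4-2, lies beyond the left edge.

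The 1 kb limit set which peaks were counted for a gene, weak and strong alike. Just inside it were a mouse antibody peak of 4.32 at RNU5D-1, 742 bp away, and the ChIP-seq peak of RNU4-1, 725 bp from RNU4-2. The next peaks outside were a mouse antibody peak of 4.72 past RNU5F-1, at 1037 bp, the ChIP-seq peak of RNU4-2 (32.1), at 1132 bp from RNU4-1, and a ChIP-seq peak of 9.09 (rank 103) past RNU5E-1, at 1331 bp. That last peak had its summit 66 bp past the end of the pseudogene RNU5E-4P.

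Copies of these genes were then compared. The annotation lists 182 pseudogene copies of U2, U4 and U5 genes by symbol, and 4 of them had a ChIP-seq peak within 1 kb, 6 a goat antibody peak and 4 a mouse antibody peak. The 4 in ChIP-seq were RNU2-63P (fold enrichment 16.2, rank 44), RNU5E-4P (9.09), RNU5E-6P (7.94, rank 115) and RNU5A-8P (7.32, rank 121). Their summits lay 79, 66, 17 and 110 bp past the gene end, beside 54 to 215 bp at the genes. In the goat antibody list RNU5A-8P ranked 7 with a fold enrichment of 20.3, above each of the 8 genes, and RNU5E-6P ranked 18 with 14.6. The peaks at RNU5E-4P in both CUT&RUN lists were those of RNU5E-1.

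The PSE core was present at 4 of the 182 copies. Of these 4, RNU2-63P, RNU5E-6P and RNU5E-4P had a ChIP-seq peak, and RNU4-85P had no peak in ChIP-seq or in the goat antibody list. The core began 58, 58 and 59 bases before the start at the 3 with a peak, the spacing seen at the genes, and 66 bases before it at RNU4-85P. Of the 178 copies without the core, 1 (RNU5A-8P) had a ChIP-seq peak and 3 had a goat antibody peak.

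The U1 genes are also transcribed by RNAPII from PSE promoters. A peak lay within 1 kb at 5 of 24 annotated U1 genes and variants (symbols RNU1 and RNVU1) in each list. The ChIP-seq summits lay past the end at 4 of the 5, by 91 bp at RNU1-1, 57 bp at RNU1-2, 47 bp at RNVU1-6 and 42 bp at RNVU1-18, and within the gene at RNVU1-14. The median percentiles of their strongest peaks were 99.5, 97.6 and 93.8 in the goat antibody, mouse antibody and ChIP-seq lists. The PSE core as spelled above was found at none of these 5 and at 1 of the other 19, RNVU1-8, which had no peak in the ChIP-seq or goat antibody list.

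Of the minor spliceosome and U7 genes fixed for comparison, the annotation held 3. RNU4ATAC, the minor counterpart of U4, had a goat antibody peak of 8.48 with its summit 202 bp past the end and a ChIP-seq peak of 12.5 (rank 70) with its summit 94 bp past the end. RNU7-1, whose RNA processes histone mRNAs, had a goat antibody peak of 11.9 with its summit upstream. None of these 3 genes had a mouse antibody peak within 1 kb, and only RNU4ATAC had one in ChIP-seq. Of 7 genes transcribed by RNA polymerase III from PSE promoters, such as those for U6 and 7SK, RNU6-8 and RNU6-7 had goat antibody peaks, of 4.24 and 3.04, with summits 480 and 1012 bp upstream. No peak was found within 1 kb of any of the 7 in the mouse antibody or ChIP-seq list.

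**Figure D4:**
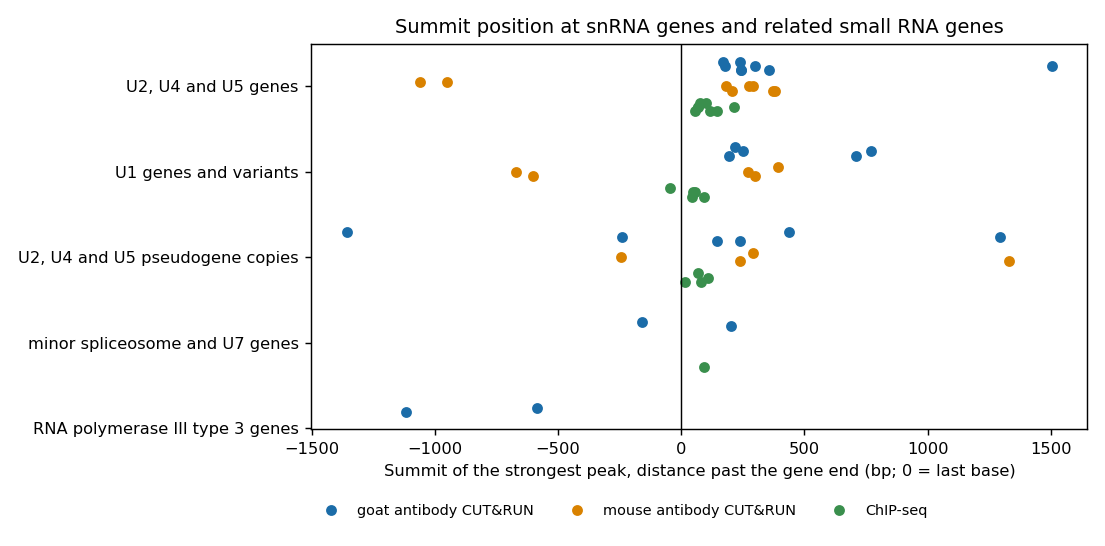
Distance of the strongest peak's summit from the gene end, in bp past the last base along the gene's strand (horizontal axis, with a line at 0), for genes with a peak within 1 kb in 5 groups of small RNA genes. Each point is 1 gene in 1 list. ChIP-seq summits lie past the gene end at 8 of 8 U2, U4 and U5 genes, 4 of 5 U1 genes and 4 of 4 pseudogene copies.

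The side of the gene was also counted for other short genes. Of the other annotated genes of 200 bp or shorter with a peak, the strongest peak's summit was downstream at 94 of 178 (52.8%) in the goat antibody list, 30 of 53 (56.6%) in the mouse antibody list and 20 of 23 (87.0%) in the ChIP-seq list. Of the other genes of the snRNA class with a peak, it was downstream at 22 of 30 (73.3%), 11 of 15 (73.3%) and 13 of 14 (92.9%). Those of 200 bp or shorter are also part of the counts for short genes, so the 2 sets are not separate. For the U2, U4 and U5 genes the counts were 8 of 8, 6 of 8 and 8 of 8. The 2 exceptions in the mouse antibody list were RNU4-2, where the stronger peak is the one past RNU4-1, and RNU5D-1, with a summit 834 bp upstream. These counts were not tested, because position was part of how the genes were chosen.

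Protein-coding genes of the same pathway had goat antibody peaks below the strongest ones of the U2, U4 and U5 genes. The latter were chosen partly by fold enrichment rank, so nothing is read from this difference. Of 25 genes for proteins of the U2, U4/U6 and U5 particles, 6 had a goat antibody peak within 1 kb, the highest being 4.78 at SF3B1, which encodes a U2 protein, and 4.77 at SF3B3. In ChIP-seq, SNRPB2 (14.0, rank 55) and SNRPA1 (10.6, rank 89), which encode U2 proteins, had a peak with its summit just upstream of the gene, and both values were above that of RNU5F-1. SNU13, which encodes a U4 protein, had the highest of 3 mouse antibody peaks, at 5.97. This was above the strongest mouse antibody peaks of RNU5B-1 (5.79), RNU5D-1 (4.32) and RNU5F-1 (3.35) and below those of the other U2, U4 and U5 genes.

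Of 7 genes for the Sm proteins that form a ring on these snRNAs, 5 had a goat antibody peak, up to 6.57 at SNRPB, 1 (SNRPG, 5.14) had a mouse antibody peak and none had a ChIP-seq peak. Of 25 genes for snRNA transcription and 3′ end processing, 11 had a goat antibody peak, led by SNAPC5 (6.12), which encodes a SNAPc subunit, and the Integrator genes INTS11 (5.03) and INTS7 (4.98). In the mouse antibody list 3 of these 25 had a peak, with 4.88 at SNAPC5, 4.28 at INTS9 and 3.81 at SNAPC2, and none had one in ChIP-seq. Goat antibody medians were 4.55, 5.88 and 4.15 in these lists of protein-coding genes with a peak, beside 4.32 in the whole list and 13.6 at the U2, U4 and U5 genes. The last value follows in part from the choice of these genes by rank and was not compared by a test.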

How the data were processed

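Per the labels and the methods, the authors mapped the paired-end reads with Bowtie2 2.3.4.1 (local mode, hg19), removed PCR duplicates with Picard 1.88 and called peaks with MACS2 2.1.1 at default parameters against goat IgG, mouse IgG or input. No filter on mapping quality is stated, and whether the 2 goat antibody replicates were pooled is not given in the sources used here. The deposited fold enrichment is a ratio over the local control, the deposited −log10 q-value comes from MACS2, and the deposited score repeats it in another form and was not used, nor was the column of p-values.

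Positions were read from the lists and count from 1. Chromosome names and lengths matched GRCh37. A peak was assigned to a gene when any part lay within 1 kb. Its summit was classed as upstream, over or downstream by the gene's strand, and it was ranked by fold enrichment within its list. The members and lists were chosen with earlier results of these data known. The rule for named genes took the members, genes within 1 kb of their peaks, the nearest coding genes, and at most the 4 highest peaks of each comparison list; the other pseudogenes and snRNA genes, and those named for their motif, were chosen after their values were seen. Words of 32 bases were counted on both strands. In simulated data, 200 of 200 planted peaks were found on the right side of genes of the snRNA class. Python 3.11.15, numpy 2.4.6, pandas 2.3.3, pysam 0.24.0, Biopython 1.88, samtools 1.23.1 and matplotlib 3.10.9 were used. Samples of the other assays were not analysed here. The sequences of the genes themselves are not reported here.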

Additional observations from a re-analysis of the deposited data

How the results depend on the processing

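Over 60 alternatives, 59 gave counts within 1.5 times the value reported or medians within the range over the genes. They changed the window around the gene, the q-value or fold limit, the ranking measure, the point of the peak, the chromosomes and the overlap. With peaks required to overlap the gene itself, 1 gene in place of 8 had a mouse antibody peak, because the peaks of that list lie beside the genes. The limits for calling a value unchanged were loose. The range over the genes was 10.5 to 99.8 in the mouse antibody list and 45.4 to 99.7 in ChIP-seq, so a median could hardly leave it. Counts that passed include 6 mouse antibody summits past the gene in place of 9, with the strongest peak only. A fold enrichment of at least 5 left 6 of 8 genes with a mouse antibody peak. No paired analysis was possible because no list separates the 2 goat antibody replicates and no result comes from a test. Leaving out a replicate was likewise not possible. Depth is unknown, and the lists cannot show whether signal below the peak caller's threshold exists between peaks. Peaks that span neighboring genes, such as RNU4-1 and RNU4-2 or RNU5E-1 and RNU5E-4P in the goat antibody list, cannot be divided between them.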
